A study of Mus musculus with 6 samples.

Results

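Interferon regulatory factors (IRFs) were examined in splenic CD8+ T cells of mice whose tumor had been ablated and which then received the glycolysis blocker 2-deoxy-D-glucose (2DG) or its vehicle. The members were the 8 IRF genes Irf1, Irf2, Irf3, Irf4, Irf5, Irf7, Irf8 and Irf9, matched by symbol, out of 28773 genes in all. Each of the 6 samples was bulk RNA of CD8+ T cells isolated from the spleen with a CD8+ T cell isolation kit on day 35, counted from the implantation of the tumor. In the MWA+PBS group (n = 3, replicates 1 to 3) the primary tumor was destroyed by microwave ablation (MWA) and the mice were then injected with PBS. In the MWA+2DG group (n = 3, replicates 4 to 6) the ablation was the same and the injections contained 2DG. All 6 samples therefore share the tumor and the ablation, and neither an untreated nor a 2DG-only group was analysed here. By the schedule in the study's methods, the injections of both groups had ended some days before day 35. Strain, age and tumor line of these animals are not in the labels, and the labels do not say whether each sample came from 1 mouse. The p-values below measure the spread between these samples, which may be technical.

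IRFs are transcription factors that share a DNA-binding domain and recognize GAAA repeats, as in the interferon-stimulated response element (ISRE). IRF3, IRF5 and IRF7 carry signals from nucleic acid sensors and Toll-like receptors to the interferon genes, IRF9 brings the complex that answers type I interferon to DNA, and IRF1 acts downstream of interferon gamma with IRF2 as its competitor. IRF4 is induced by the T cell receptor and sustains the expansion of CD8+ T cells, whereas IRF8 is best known for directing monocyte, dendritic cell and B cell development.

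Values are FPKM, fragment numbers divided by the length of the transcript and by the size of the library, which sets genes of different length on one scale. FPKM totals ran from 291803 to 313257 per sample, and between 12198 and 12515 genes had at least 1 FPKM; the read depth is unknown. CD8 T cell markers were the most abundant lymphocyte list, with a summed level of 1275 to 1340 FPKM in MWA+PBS against 1838 to 1971 in MWA+2DG, and all 8 of them were higher in MWA+2DG. Cd8b1, the beta chain of the coreceptor, went from 329 ± 8.38 to 484 ± 27.2 FPKM, and Trac, the constant region of the T cell receptor alpha chain, from 263 ± 12.4 to 389 ± 23.8. The samples also held transcripts of other cells, and these moved with the groups. The macrophage and monocyte list summed to 1049 to 1121 FPKM in MWA+PBS against 415 to 464 in MWA+2DG, the neutrophil list to 56.0 to 81.8 and 1539 to 1713, the B cell list to 10.9 to 12.1 and 53.6 to 58.7, and the erythroid list to 215 to 249 and 47.5 to 64.1. In bulk RNA, fewer cells of a type and less RNA per cell cannot be told apart. No batch is named in the labels, and one that coincided with the groups cannot be told apart from 2DG.

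**Figure D1:**
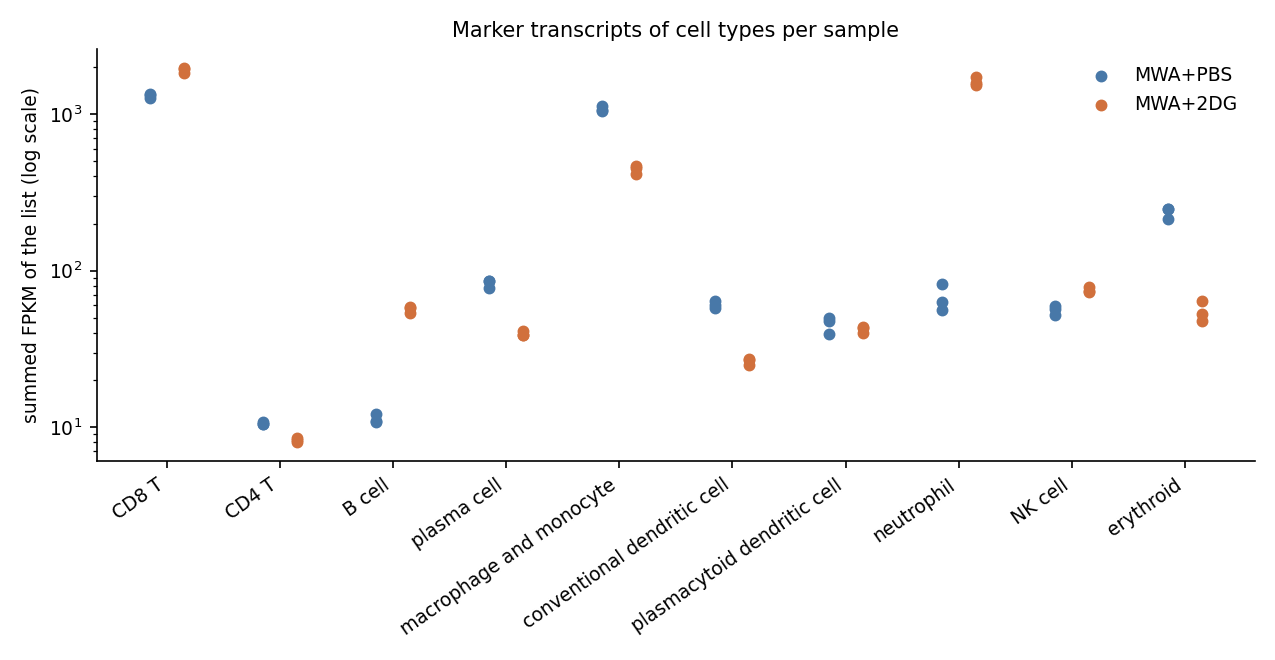
Summed FPKM of the marker genes of 10 cell types (log scale), 1 point per sample, MWA+PBS in blue and MWA+2DG in orange. The macrophage and monocyte sums lie between 1049 and 1121 for MWA+PBS and from 415 to 464 for MWA+2DG, while the neutrophil sums lie from 56.0 to 81.8 and from 1539 to 1713.

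The question put to the 8 genes was which of them were higher or lower with 2DG. Irf7, Irf4, Irf3, Irf9 and Irf1 were higher in MWA+2DG, Irf5 and Irf8 were lower, and Irf2 did not pass the test. All 8 passed the filter on low values (mean of at least 1 FPKM). Of the 8, 7 were called at a Benjamini-Hochberg adjusted p under 0.05 by limma over 12444 tested genes, where 39.4% of all genes were called (22.3% higher and 17.1% lower). The rule of the study was read as a log2 fold change past 0.25 at an unadjusted p under 0.05. The study's methods name neither the base of the logarithm nor an adjustment. That rule also called 7, against 38.2% of all tested genes (21.6% higher and 16.6% lower), though 5 with median ratio scaling. The groups did not overlap for the same 7 members, 5 higher and 2 lower, against 52.1% of all tested genes (30.2% higher and 21.9% lower). The direction of the smaller increases depended on scaling. When the samples were scaled to 25 T lineage genes, which rose on average by 0.34 on the log2 scale, the median of all genes moved by -0.29, Irf1 (-0.035) and Irf9 (-0.021) changed sign, Irf3 and Irf4 kept theirs without passing the test, and Irf2 was called lower. Irf7 stayed higher and Irf5 and Irf8 stayed lower, so that 4 members were called, 1 higher and 3 lower. Under that scaling 56.5% of all tested genes were called, 6.75% higher and 49.7% lower, which is the background for each count given with T lineage scaling.

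**Figure D2:**
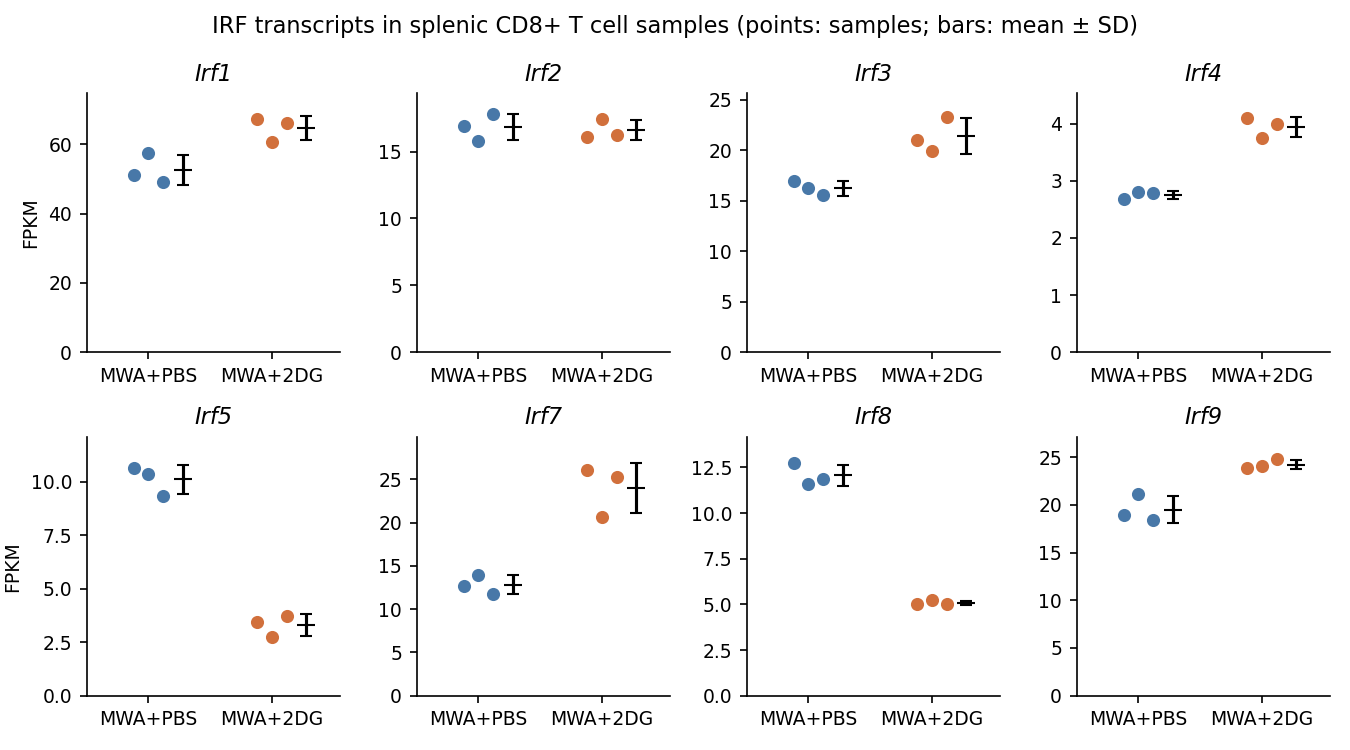
FPKM of each IRF gene (y axes start at 0), 1 point per sample, with the mean ± SD of the 3 samples of each group beside the points. Irf5 and Irf8 lie lower and Irf7 higher in every MWA+2DG sample, while the Irf2 values of the groups overlap; under scaling to T lineage genes the differences of Irf1 and Irf9 change sign.

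Irf1 (ENSMUSG00000018899), an activator of antigen presentation genes, was the most abundant member in both groups. It read 51.1, 57.4 and 49.1 FPKM in MWA+PBS and 67.2, 60.7 and 66.1 in MWA+2DG. The lowest MWA+2DG sample was above the highest MWA+PBS sample. The group means of 52.5 ± 4.31 and 64.7 ± 3.46 FPKM gave a log2 fold change of 0.30 ± 0.07 (SE; 95% interval 0.13 to 0.47, adjusted p = 0.0151, limma) on the log2(FPKM + 1) scale. That scale makes the change of weakly expressed genes look smaller. With 1 sample fewer the call was lost 3 times. The adjusted p was 0.0561 without MWA+PBS replicate 1, 0.0563 without MWA+2DG replicate 4 and 0.0536 without MWA+2DG replicate 6. Irf1 stood at -0.035 (adjusted p = 0.655) with T lineage scaling.

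Irf2 (ENSMUSG00000031627), the competitor of IRF1 at shared sites, read 16.9, 15.8 and 17.8 FPKM in MWA+PBS and 16.1, 17.5 and 16.3 in MWA+2DG. The groups overlapped, and the log2 fold change was -0.02 ± 0.06 (95% interval -0.16 to 0.13, adjusted p = 0.854, limma). Scaled to T lineage genes it was -0.34 (adjusted p = 0.00699). The ratio of Irf1 to Irf2 within a sample does not depend on how samples are scaled. It was 3.14 ± 0.443 in MWA+PBS against 3.90 ± 0.374 in MWA+2DG. As log2 ratios, the samples read 1.6, 1.86 and 1.47 against 2.06, 1.80 and 2.02, and the difference of 0.32 had an exact two-sided permutation p of 0.2. One MWA+2DG sample fell inside the MWA+PBS range, so the ratio did not separate the groups.

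Among the factors that induce interferon genes, Irf7 (ENSMUSG00000025498) showed the largest increase of any member. IRF7 is the amplifier of the type I interferon response and is itself encoded by an interferon-stimulated gene. Its transcript read 12.7, 14.0 and 11.7 FPKM in MWA+PBS and 26.1, 20.7 and 25.3 in MWA+2DG. Every MWA+2DG sample was well above every MWA+PBS sample. The mean rose from 12.8 ± 1.11 to 24.0 ± 2.90 FPKM, a ratio of 1.88, and the log2 fold change was 0.85 ± 0.10 (95% interval 0.62 to 1.09, adjusted p = 0.000508, limma). It was the 252nd highest of 12444. With T lineage scaling the increase was 0.53 (adjusted p = 0.00137). The neutrophil list was higher in the same samples, with 10 of 10 genes called, among them Ngp (26.8 ± 4.39 and 614 ± 30.6 FPKM) and S100a9 (23.2 ± 6.0 and 596 ± 46.8), which encode granule and calcium-binding proteins of these cells. Its part in the increases of Irf7 and of the interferon-stimulated genes described later was not tested.

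Irf3 (ENSMUSG00000003184), the constitutive partner of IRF7 downstream of the kinase TBK1, moved less. It read 17.0, 16.2 and 15.5 FPKM in MWA+PBS and 21.0, 19.9 and 23.3 in MWA+2DG, without overlap. The means were 16.2 ± 0.735 and 21.4 ± 1.76 FPKM, with a log2 fold change of 0.37 ± 0.07 (95% interval 0.21 to 0.54, adjusted p = 0.00517, limma) that shrank to 0.05 (adjusted p = 0.473) with T lineage scaling. Exons of Irf3 overlap those of Bcl2l12, an apoptosis regulator on the opposite strand, in GENCODE M21. Bcl2l12 itself changed by 0.40 (adjusted p = 0.00335, limma), and the sources used here do not say whether strand entered the quantification, so the reads of this pair cannot be told apart. The log2 ratio of Irf7 to Irf3 was -0.42, -0.22 and -0.40 in MWA+PBS and 0.31, 0.06 and 0.12 in MWA+2DG. Irf3 was thus the more abundant of the pair in each MWA+PBS sample and Irf7 in each MWA+2DG sample. The difference was 0.51 (exact permutation p = 0.1, the smallest that 3 against 3 allows).

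Irf5 (ENSMUSG00000029771), which acts behind MyD88 and is abundant in macrophages and B cells, fell the most. It read 10.6, 10.4 and 9.34 FPKM in MWA+PBS and 3.43, 2.74 and 3.72 in MWA+2DG. No MWA+2DG sample reached even the lowest MWA+PBS value. The mean was 10.1 ± 0.677 FPKM in MWA+PBS against 3.30 ± 0.503 in MWA+2DG, 3.07-fold higher in MWA+PBS, with a log2 fold change of -1.38 ± 0.10 (95% interval -1.61 to -1.14, adjusted p = 4.96e-05, limma). The decrease was the 258th strongest of 12444 genes, and it was -1.66 with T lineage scaling. The macrophage and monocyte list moved the same way. Of its 15 genes, 12 were lower and 2, Lyz2 and Ly6c2, were higher in MWA+2DG. Hmox1, the haem oxygenase of red pulp macrophages, was 221 ± 9.18 and 26.9 ± 1.53 FPKM, and Lyz2, a lysozyme shared with neutrophils, 171 ± 12.1 and 227 ± 15.4 FPKM. The part of these cells in the change of Irf5 was not tested.

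Irf8 (ENSMUSG00000041515), the lineage factor of monocytes and dendritic cells, was also lower in MWA+2DG. The samples read 12.7, 11.6 and 11.9 FPKM in MWA+PBS and 5.02, 5.23 and 5.03 in MWA+2DG. The samples of each group lay close together and far from those of the other group. The mean was 12.1 ± 0.579 FPKM in MWA+PBS against 5.09 ± 0.118 in MWA+2DG, 2.37-fold higher in MWA+PBS, with a log2 fold change of -1.10 ± 0.06 (95% interval -1.24 to -0.96, adjusted p = 1.19e-05, limma). It was -1.40 with T lineage scaling. The list of conventional dendritic cell markers summed to 57.9 to 63.6 FPKM in MWA+PBS against 25.02 to 27.4 in MWA+2DG, and all 3 of its 8 genes that passed the filter were lower. These included Cst3, a cysteine protease inhibitor, at 50.7 ± 1.70 and 22.3 ± 0.823 FPKM, and Itgax, which encodes CD11c, at 4.49 ± 0.436 and 1.75 ± 0.291 FPKM. Most of each sum was Cst3. The defining marker Xcr1 was near 0, at 0.510 ± 0.0520 and 0.370 ± 0.0557 FPKM. Of the other genes below the filter, Clec10a was lower in MWA+2DG (0.597 ± 0.168 and 0.173 ± 0.0252 FPKM). Zbtb46 (0.230 ± 0.0173 and 0.177 ± 0.0681), Clec9a (0.523 ± 0.165 and 0.413 ± 0.0907) and Cd209a (0.603 ± 0.415 and 0.663 ± 0.117) overlapped between the groups. The B cell list moved opposite to Irf5 and Irf8, with all 8 tested genes of 9 higher in MWA+2DG. Cd79b and Cd79a, the signaling chains of the B cell receptor, were 6.53 ± 0.690 and 16.3 ± 0.702 FPKM and 1.22 ± 0.261 and 12.5 ± 1.48 FPKM. The part of these cells in the change of Irf8 was not tested.

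Irf4 (ENSMUSG00000021356), the T cell receptor-induced member, was the least abundant in MWA+PBS and one of the few members without an overlapping gene. It read 2.68, 2.81 and 2.78 FPKM in MWA+PBS and 4.10, 3.76 and 3.99 in MWA+2DG, with no overlap. The means of 2.76 ± 0.0681 and 3.95 ± 0.173 FPKM gave a log2 fold change of 0.40 ± 0.07 (95% interval 0.24 to 0.56, adjusted p = 0.00321, limma), which was 0.14 (adjusted p = 0.123) with T lineage scaling. IRF4 is also high in plasma cells and B cells. The plasma cell list was lower in MWA+2DG, at 38.7 to 41.1 FPKM in sum against 78.1 to 86.3, and Jchain, the joining chain of secreted immunoglobulin, was 62.2 ± 3.67 FPKM in MWA+PBS against 24.7 ± 1.11 in MWA+2DG. Xbp1, a factor of secretory cells, was 17.0 ± 0.709 and 11.5 ± 0.629 FPKM. The B cell list was higher, as Irf4 was, with sums of 10.9 to 12.1 and 53.6 to 58.7 FPKM and all 8 tested genes called. The part of these cells in the level of Irf4 was not tested.

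IRF4 and IRF8 are close relatives that bind composite sites with the ETS factors PU.1 and SPI-B, and their transcripts changed in opposite directions, except that the change of Irf4 did not pass the test with T lineage scaling. The log2 ratio of Irf4 to Irf8 was -2.25, -2.05 and -2.10 in MWA+PBS and -0.29, -0.48 and -0.33 in MWA+2DG. Irf8 exceeded Irf4 in every sample, but by much less in MWA+2DG. The linear ratio was 0.229 ± 0.0163 in MWA+PBS against 0.776 ± 0.0511 in MWA+2DG, and the log2 difference was 1.76 (exact permutation p = 0.1, the smallest possible).

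**Figure D3:**
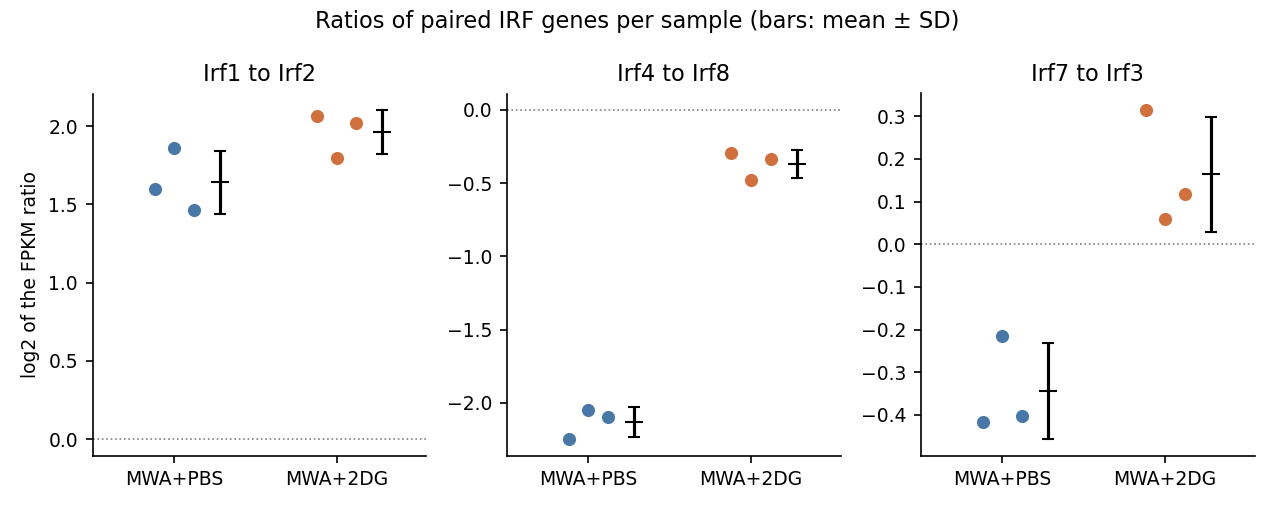
Log2 ratio of FPKM for 3 pairs of IRF genes, 1 point per sample with the mean ± SD of each group; the dotted line marks equal levels, and each panel has its own axis range. Irf4 to Irf8 went from -2.13 to -0.37 and Irf7 to Irf3 from -0.34 to 0.16 without overlap, whereas the Irf1 to Irf2 values overlap.

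Irf9 (ENSMUSG00000002325), the DNA-binding subunit of the type I interferon complex, read 18.9, 21.1 and 18.4 FPKM in MWA+PBS and 23.9, 24.0 and 24.8 in MWA+2DG. All MWA+2DG samples were above the MWA+PBS samples, by a narrow margin. The means were 19.5 ± 1.44 and 24.2 ± 0.476 FPKM, with a log2 fold change of 0.30 ± 0.06 (95% interval 0.15 to 0.45, adjusted p = 0.00789, limma), which turned to -0.021 (adjusted p = 0.789) with T lineage scaling. Irf9 overlaps Rnf31, a ubiquitin ligase subunit on the same strand, which lay between 12.9 and 14.5 FPKM. Opposite-strand exon overlaps were found for Irf1 with Gm17334, for Irf5 with Tnpo3 and for Irf7 with Phrf1. On the log2 scale Rnf31 changed by 0.09 (adjusted p = 0.209, limma), Gm17334 by -0.24 (adjusted p = 0.0394, limma), Tnpo3 by 0.01 and Phrf1 by -0.16. Irf2, Irf4 and Irf8 shared no exon with another gene.

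**Figure D4:**
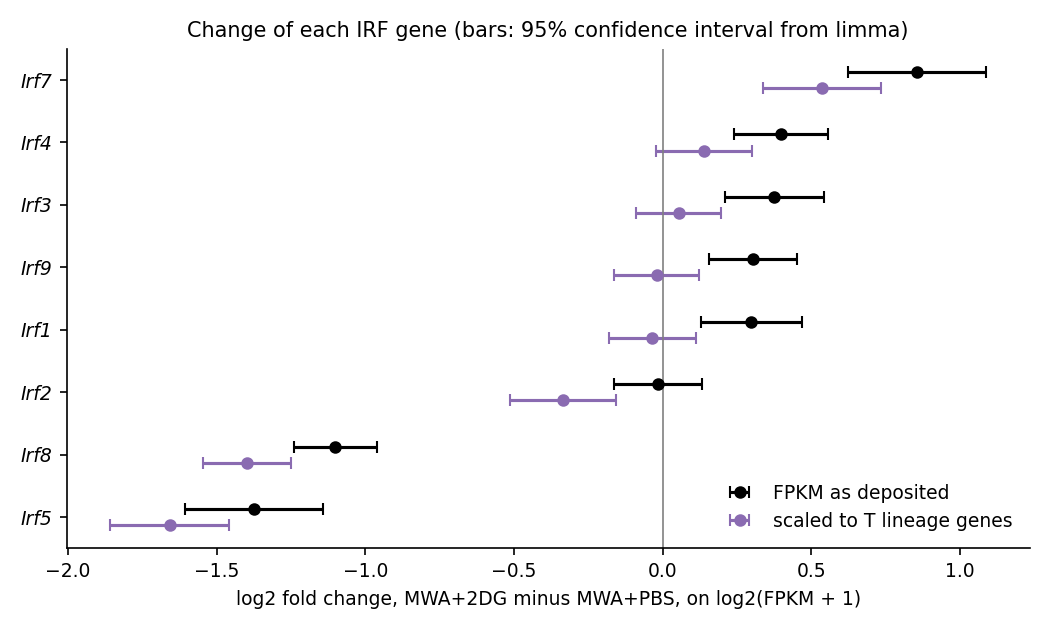
Log2 fold change of each IRF gene, MWA+2DG minus MWA+PBS, with its 95% confidence interval from limma, for FPKM as deposited (black) and after scaling to 25 T lineage genes (purple). Irf7 lies above 0 and Irf5 and Irf8 below 0 in both, whereas Irf1 and Irf9 change sign and the intervals of Irf3 and Irf4 reach 0 after scaling.

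The order of levels also changed. In MWA+PBS, Irf1 was followed by Irf9, Irf2, Irf3, Irf7, Irf8, Irf5 and Irf4, and only the neighbours Irf2 and Irf3, and Irf7 and Irf8, overlapped. In MWA+2DG, Irf1 was followed by Irf9, Irf7, Irf3, Irf2, Irf8, Irf4 and Irf5, and Irf7 overlapped with both Irf9 and Irf3. Over the 6 samples, Irf1 was above 95.4% of the tested genes, while Irf4 was above 29.4%. The sum of the 8 genes was 142.8 ± 6.35 FPKM in MWA+PBS against 163.3 ± 7.61 in MWA+2DG (exact permutation p = 0.1). Irf5 and Irf8 together made up 15.5 ± 0.821% of this sum in MWA+PBS against 5.14 ± 0.0656% in MWA+2DG, whereas the share of Irf7 went from 8.96 ± 0.379% to 14.7 ± 1.16% (exact permutation p = 0.1 for each). The shares do not depend on the scaling of samples. The sum does, and it was not computed with T lineage scaling, under which Irf1, its largest part, stood at -0.035.

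Promoter sequence was taken from the RefSeq promoter table (GRCm38.p6), in which all 8 genes were found, with 11 windows of 250 bases upstream of a start. The submitters' processing notes name mm9 for the reads, so these coordinates do not apply to the deposited values. On both strands, 4 motifs were sought: a pair of GAAA half-sites separated by 2 bases (IRF), TTC and GAA separated by 3 bases (the STAT motif GAS), GGAA and GAAA separated by 2 bases (the ETS-IRF composite, which can overlap the IRF pair) and GGGA and CC separated by 4 bases (an NF-kB-type motif). They occurred in 2.98%, 7.02%, 2.30% and 17.6% of the 32851 windows in the table, and in 1, 3, 1 and 3 of the 11 IRF windows. The windows of Irf1, the most abundant member, and of Irf8 and Irf5, the members that fell, are shown because they hold no annotated exon; matches are in capitals. They lie at chr11:53769764-53770013 for Irf1, chr8:120736108-120736357 for Irf8 and chr6:29526375-29526624 for Irf5, all on the plus strand.
Irf1: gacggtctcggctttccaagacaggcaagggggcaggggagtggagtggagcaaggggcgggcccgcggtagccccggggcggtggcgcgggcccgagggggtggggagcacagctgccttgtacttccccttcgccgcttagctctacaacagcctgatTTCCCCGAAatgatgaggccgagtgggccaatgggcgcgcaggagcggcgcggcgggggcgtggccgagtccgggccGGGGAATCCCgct
Irf8: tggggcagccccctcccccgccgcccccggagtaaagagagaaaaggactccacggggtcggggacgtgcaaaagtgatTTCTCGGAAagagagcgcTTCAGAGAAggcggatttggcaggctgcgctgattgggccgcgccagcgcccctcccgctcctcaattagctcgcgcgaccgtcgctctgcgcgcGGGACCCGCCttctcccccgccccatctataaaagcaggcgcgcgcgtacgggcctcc
Irf5: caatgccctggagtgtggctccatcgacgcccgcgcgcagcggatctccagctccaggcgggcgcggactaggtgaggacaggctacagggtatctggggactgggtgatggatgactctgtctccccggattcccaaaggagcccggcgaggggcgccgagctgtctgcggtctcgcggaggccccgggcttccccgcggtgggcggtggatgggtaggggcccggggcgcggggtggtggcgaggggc
The Irf1 window held a GAS match 90 to 82 bases and an NF-kB-type match 13 to 4 bases before the start. The Irf8 window shown held GAS matches 171 to 163 and 153 to 145 bases and an NF-kB-type match 58 to 49 bases before it. None of the 4 motifs was in the Irf5 window or in the other Irf8 window of the table (chr8:120738389-120738638), which also holds no exon and is not printed. Motifs of the same 2 kinds were thus found for Irf1 and for Irf8, and these matches describe letters only.

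Upstream of the IRF proteins, the sensing and kinase machinery moved in both directions. Of 28 genes, 27 were tested, 9 (33.3%) were higher and 8 (29.6%) were lower, beside 22.3% and 17.1% of all tested genes, with a median log2 fold change of 0.05, the same as over all tested genes. The strongest changes were decreases of endosomal components. Tlr8, an endosomal Toll-like receptor, went from 5.22 ± 0.05 to 1.24 ± 0.236 FPKM (log2 fold change -1.48, adjusted p = 2.66e-05, limma). Unc93b1, the chaperone that brings these receptors to the endosome, read 27.7, 26.8 and 28.5 FPKM in MWA+PBS and 11.2, 10.2 and 10.8 in MWA+2DG (-1.28, adjusted p = 4.99e-06, limma). Tlr4, the receptor of lipopolysaccharide, changed by -0.64 and Zbp1, a nucleic acid sensor that is itself interferon-inducible, by 0.72. The IRF3 kinase genes Tbk1 (0.36, adjusted p = 0.0111, limma) and Ikbke (0.31, adjusted p = 0.0106, limma) were higher, and the adaptor Myd88 did not pass the test at -0.13 (adjusted p = 0.277, limma). These 3 were chosen for their role after their values were seen. The macrophage and monocyte list fell in the same samples as Tlr8, Unc93b1 and Tlr4 (sums of 1049 to 1121 and 415 to 464 FPKM, 12 of 15 genes lower), and its part in these decreases was not tested. With T lineage scaling the list had 2 higher and 15 lower genes, where 6.75% and 49.7% of all genes were so called.

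Little can be said of the interferon genes themselves. Of 10 listed, 2 were matched in the files and 1 passed the filter, and the others were not analysed here. Ifng, the gene of interferon gamma, was 2.20 ± 0.451 FPKM in MWA+PBS against 2.14 ± 0.642 in MWA+2DG (log2 fold change -0.04, adjusted p = 0.875, limma). Among the interferon receptors and JAK-STAT genes, 7 of 18 tested (38.9%) were higher and 3 (16.7%) lower, with a median of 0.16. The share of lower genes was near that of all tested genes (17.1%), and the share of higher genes stood beside 22.3%. Usp18, a brake on the type I receptor, rose by 0.67 and the phosphatase gene Ptpn2 by 0.56. The 3 genes that fell were Ifngr2 (-0.51) and Ifngr1 (-0.21), the chains of the interferon gamma receptor, and the cytokine suppressor Socs3 (-0.33). Stat2, which encodes a partner of IRF9, was at 0.14 (adjusted p = 0.0608, limma), a gene chosen for its role after its values were seen. After T lineage scaling 3 were higher and 9 lower, the latter beside 49.7% of all genes.

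Downstream, ISRE target genes were mostly higher. Of 32 genes, 29 were tested, 24 (82.8%) rose and 0 fell, with a median log2 fold change of 0.52, beside 22.3% and 0.05 for all tested genes. At an unadjusted p under 0.05, limma gave 25 higher and 1 lower, Ifi44 at -0.20 (adjusted p = 0.0926). The largest increases were in Ifit3 (6.23 ± 0.495 to 15.8 ± 0.215 FPKM, log2 fold change 1.22), Ifit3b (1.13), Mx1 (0.97) and Samd9l (0.97), which encode antiviral proteins. Ifit3 and Ifit3b are near-identical copies whose reads may be split between them, so the value of each is uncertain. With T lineage scaling 13 were called higher and 1 lower, beside 6.75% and 49.7% of all genes.

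Genes known as IRF1 targets moved the same way. Of 23 tested genes out of 27, 20 (87.0%) rose and 1 (4.35%) fell, beside 22.3% and 17.1% of all tested genes, with a median of 0.45. Iigp1, an interferon-inducible GTPase, rose from 5.15 ± 0.322 to 13.6 ± 0.266 FPKM (log2 fold change 1.25, adjusted p = 7.51e-06, limma). Gbp4 (0.73) and Tgtp1 (0.65) belong to related GTPase families, and Tap1 (40.2 ± 1.09 to 61.8 ± 3.26 FPKM, 0.61) transports peptides for MHC class I. Icam1, the adhesion molecule, was the tested one that fell, from 18.4 ± 0.193 to 15.2 ± 0.104 FPKM (-0.26). Below the filter, Cxcl9 (0.823 ± 0.0945 and 0.400 ± 0.0557 FPKM) and Il15 (0.780 ± 0.231 and 0.353 ± 0.116) were lower in MWA+2DG. There, too, Ciita was higher (0.420 ± 0.0529 and 1.13 ± 0.01 FPKM), and Cxcl10 overlapped between the groups. With T lineage scaling 8 were called higher and 2 lower, beside the same shares of all genes.

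Partners and corepressors of the IRFs moved in both directions. Of 19 tested genes out of 21, 3 (15.8%) rose and 6 (31.6%) fell, beside 22.3% and 17.1% of all tested genes, with a median of -0.20. Without MWA+PBS replicate 3, 4 rose and 4 fell, and over all samples left out in turn the number that fell ran from 4 to 9. Jun, an AP-1 subunit that binds with BATF and IRF4, read 79.9, 74.8 and 74.2 FPKM in MWA+PBS and 8.54, 7.19 and 6.97 in MWA+2DG (log2 fold change -3.18, adjusted p = 3.56e-07, limma). Junb, its relative, fell by 1.27 on the log2 scale. The ETS partners of IRF4 and IRF8 went in opposite directions. Spi1, which encodes the myeloid and B cell factor PU.1, read 10.9, 10.1 and 10.1 FPKM in MWA+PBS and 5.24, 4.87 and 4.50 in MWA+2DG (-0.95, adjusted p = 5.15e-05, limma). Spib, whose product is typical of B cells and plasmacytoid dendritic cells, read 0.65, 0.59 and 0.75 FPKM in MWA+PBS and 3.71, 4.39 and 3.63 in MWA+2DG (1.56, adjusted p = 2.27e-05, limma). Spi1 moved in the same direction as Irf8 and the macrophage list, and Spib as the B cell list; the part of those cells was not tested. After T lineage scaling 2 partner genes were higher and 11 lower, beside 6.75% and 49.7% of all genes.

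**Figure D5:**
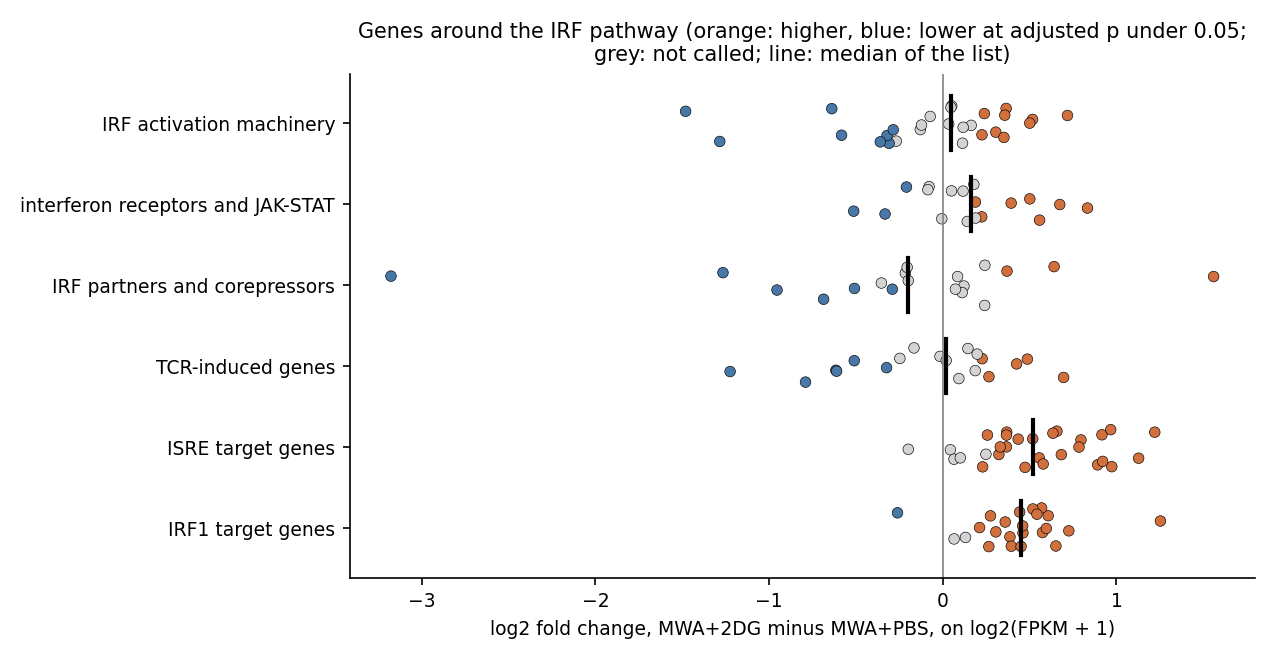
Log2 fold change, MWA+2DG minus MWA+PBS, of the tested genes in 6 lists around the IRFs (1 point per gene; orange higher, blue lower, grey not called at adjusted p under 0.05; black line, median of the list). ISRE targets (median 0.52) and IRF1 targets (0.45) lie mostly above 0 and the machinery list on both sides; with T lineage scaling 13 ISRE and 8 IRF1 target genes were called higher.

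The genes whose profile over the 6 samples was most like that of each member were found by the root mean square difference of centred log2(FPKM + 1) values among 12443 other genes. For Irf5 they were Tifa (0.0554), Ighv1-4 and Hpgds, and for Irf8 they were Slc37a2 (0.0312), Trpm2 and Psap. Irf7 was closest to Trim34a (0.0435), Gpr18 and Izumo4, and Irf4 to Traf3ip2 (0.0189), Acbd4 and Rinl. Irf3 was closest to Gtpbp3 (0.0240), Zfand1 and Slfn2. The profiles with small changes had nearer neighbours. They were Aaas (0.0164), Wdr13 and Sugp2 for Irf1, Poldip3 (0.0154), Ncor1 and Prpf8 for Irf2, and Rhno1 (0.0123), Zbtb6 and Ensa for Irf9. Of the Irf5 and Irf8 neighbours, Psap, a lysosomal saposin precursor, went from 445.6 ± 8.93 to 207.7 ± 3.48 FPKM.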

How the data were processed

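Poly(A) RNA of 6 splenic CD8+ T cell samples was sequenced from strand-marked libraries with molecular identifiers. The authors named fastp, HISAT2, StringTie and ballgown, and the submitters' processing notes list cutadapt 1.9, HISAT2 2.0.4, UMI-tools, StringTie 1.3.4d and the build mm9; the sources used here name no annotation. The deposited values are FPKM per gene, scaled to the library, so that a transcript taking up more of it lowers the rest, and hold no counts, so no counting interval is given.

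Symbols were taken from the GENCODE M21 gene table for 28689 of 28773 gene IDs. Groups came from the GEO labels. Genes with a mean of at least 1 FPKM (12444) were fitted as log2(FPKM + 1) with limma 3.58.1 in R 4.3.3 (eBayes with a trend, two-sided, no covariate, Benjamini-Hochberg adjustment over all tested genes). Single values such as ratios had exact permutation tests of group means in SciPy 1.17.1, which cannot go below 0.1 here. The fit was tested on simulated data. The members, the 7 pathway lists, the 10 marker lists and the 25 T lineage genes were written by hand with earlier results of these data known. Named were all 8 members, the 3 most similar genes of each, in each pathway list the 4 largest changes that passed and all that fell where these were at most 5, and the 2 most abundant genes of each marker list. Others are said to have been chosen later or are defining markers, and 1 gene that the rule names is not reported here. Alternatives were a pseudocount of 0.1, no filter, a mean of at least 5 FPKM, quantile, median ratio and T lineage scaling, scaling that left out ribosomal protein, globin, immunoglobulin and mitochondrial genes, eBayes without a trend, arrayWeights and leaving out each sample.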

Additional observations from a re-analysis of the deposited data

How the results depend on the processing

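Under quantile normalization, median ratio scaling, scaling without abundant gene classes, no filter, a pseudocount of 0.1, eBayes without a trend and arrayWeights, the 8 IRF genes kept their directions and their calls by adjusted p. By the study's rule (read as an unadjusted p under 0.05 and a log2 fold change beyond 0.25, 7 as deposited) 5 were called with median ratio scaling, where Irf1 (0.24) and Irf9 (0.246) fell short of the fold limit. At a mean of at least 5 FPKM Irf4 was not tested. T lineage scaling reversed Irf1 (-0.035) and Irf9 (-0.021) and left 4 members called, by adjusted p and by the study's rule alike. It gave 2 higher and 15 lower genes in the machinery list, 3 and 9 among receptors and JAK-STAT genes, 11 lower partners, 13 higher and 1 lower ISRE targets, 8 higher and 2 lower IRF1 targets and 1 higher and 9 lower T cell receptor-induced genes. Elsewhere, IRF1 targets that fell were 2 without the filter, machinery genes that fell were 4 at a mean of at least 5 FPKM (fewer genes tested), ISRE targets that fell were 1 with median ratio scaling, partners that rose were 5 with arrayWeights, and the log2 difference of Irf4 to Irf8 was 1.499 with a pseudocount of 1; the other causes were not tested. Without 1 sample at a time, 6 to 7 members were called, Irf2 lay between -0.058 and 0.021 and was above 0 without MWA+PBS replicate 3 (0.021) or MWA+2DG replicate 4 (0.0038), and T cell receptor-induced genes that rose numbered 3 to 5, with 3 without MWA+2DG replicate 4. No paired analysis was possible because the 2 groups share no replicate number. The unknown read depth limits the precision for low genes such as Irf4.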

Other observations

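Genes induced by the T cell receptor, the signal that also induces Irf4, moved in both directions. Of 20 genes, 19 were tested, 5 (26.3%) were higher and 6 (31.6%) were lower with 2DG, beside 22.3% and 17.1% of all tested genes; their median was 0.02 on the log2 scale. With T lineage scaling 1 was higher and 9 were lower, beside 6.75% and 49.7% of all genes. Nr4a1, an orphan nuclear receptor and early response gene, fell from 12.4 ± 0.358 to 4.76 ± 0.628 FPKM (log2 fold change -1.22, adjusted p = 4.17e-05, limma, n = 3 per group). The early response genes Ier2 (-0.79) and Egr1 (-0.62) also fell, whereas Dusp2, a phosphatase of MAP kinases, rose from 17.3 ± 3.36 to 28.3 ± 1.43 FPKM (0.70, adjusted p = 0.00459, limma).

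Plasmacytoid dendritic cells, which carry high IRF7 and IRF8, had marker sums of 39.2 to 49.9 FPKM in MWA+PBS against 40.0 to 43.6 in MWA+2DG, with Bst2 at 20.9 ± 2.45 and 24.9 ± 1.88, Ccr9 at 9.37 ± 0.300 and 7.51 ± 0.135 and the defining marker Siglech at 0.880 ± 0.139 and 0.523 ± 0.0603. The NK cell list summed to 52.0 to 59.7 and 72.8 to 79.0 FPKM, with Eomes, a factor shared with memory CD8+ T cells, at 22.8 ± 0.337 and 45.6 ± 1.87 and Gzma at 24.8 ± 3.25 and 22.9 ± 1.63. Without Eomes the sums overlapped, at 29.6 to 36.7 and 28.2 to 31.2 FPKM, and the defining marker Ncr1 was lower in MWA+2DG (log2 fold change -0.35, adjusted p = 0.00764, limma). The CD4 T cell list was low, at 10.4 to 10.8 and 8.04 to 8.56 FPKM in sum, with Zbtb7b at 4.57 ± 0.50 and 2.91 ± 0.368 and Cd4 at 2.75 ± 0.160 and 1.66 ± 0.110. In the erythroid list all 7 genes were lower in MWA+2DG, among them Hba-a1 (103 ± 8.66 and 22.2 ± 2.18 FPKM) and Hbb-bs (96.9 ± 16.1 and 24.4 ± 6.10), which encode globin chains. Their part in the IRF values was not tested.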
